A study of Mus musculus with 4 samples.

Results

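Myc, Mycn, Ccnd1, Ccnd2, Fosl1, Jun, Cd44 and Sp5 are genes described in various tissues as targets of canonical Wnt signalling, most of them with roles in cell growth. They were followed here in OP9, a mouse bone marrow stromal cell line, and chosen by name: every probe whose gene name on the array, or current RefSeq symbol, is one of the 8 was taken. That gave 15 of 41174 probes and 8 of 27597 named genes. Each of 4 RNA samples was hybridised in Cy3 to its own 1-colour Agilent array. All cells received the retroviral vector LZRS-IRES-GFP, in which an internal ribosome entry site links the insert to green fluorescent protein. In the 2 Control samples the vector was empty, and in the 2 Wnt3A samples it carried the Wnt3A gene, so that the producing cells were also the responding cells. The labels state neither the time after gene transfer nor a sort for fluorescence, and the mRNA was amplified by a global PCR before labelling. They call the samples of a group separate replicates but name no separate cultures. Every p-value therefore rests on the variation among the 4 samples at hand, which may be technical. The values are whole-culture levels, in which fewer cells of a type and less RNA per cell cannot be told apart.

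In canonical Wnt signalling, a Wnt ligand such as Wnt3A binds a Frizzled receptor and an LRP co-receptor, beta-catenin is spared from degradation, and in the nucleus it acts with TCF/LEF factors on target genes. Myc and its relative Mycn are transcription factors that pair with Max on E-box sequences and drive growth genes. The D cyclins, Ccnd1 and Ccnd2 among them, activate the kinases Cdk4 and Cdk6 in the G1 phase of the cell cycle. Jun and Fosl1 (Fra-1) are subunits of the AP-1 transcription factor, Cd44 is a cell surface receptor for hyaluronan, and Sp5 is a zinc finger factor induced by beta-catenin in many cell types.

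What the arrays read of each gene is a 60-base stretch of its transcript. The 5 probes that lie wholly in coding sequence are shown because they fix which part of Myc, Mycn, Ccnd2 and Cd44 was read. Each is named by the transcript position where it starts and is printed with the spelling of the array design.
Myc, position 1407: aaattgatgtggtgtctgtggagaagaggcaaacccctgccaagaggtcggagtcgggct
Mycn, position 1007: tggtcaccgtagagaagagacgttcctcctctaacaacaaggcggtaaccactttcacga
Ccnd2, position 609: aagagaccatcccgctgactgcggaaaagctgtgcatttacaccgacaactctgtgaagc
Ccnd2, position 869: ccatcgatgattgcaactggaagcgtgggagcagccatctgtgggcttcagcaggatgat
Cd44, position 1851: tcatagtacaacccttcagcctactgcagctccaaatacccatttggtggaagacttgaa
Per the array design, which uses mouse build mm8, this Myc probe lies at chr15:61819036-61819095. The single probes of the other genes lie at chr7:144739658-144739717 for Ccnd1, chr19:5455496-5455555 for Fosl1, chr4:94541191-94541250 for Jun and chr2:70278470-70278529 for Sp5. The Cd44 probe printed here is listed for 2 RefSeq transcripts, and both other Cd44 probes for 3 each.

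The 250 bases before the transcription start of Sp5 and Jun follow, from RefSeq on build GRCm38.p6, because a textbook beta-catenin target and the member with the largest difference can be read side by side there. The table of promoters held 4 of the 8 genes: Mycn, Jun, Cd44 and Sp5. In the Sp5 window capitals mark CTTTGA, the core letters of a TCF/LEF motif. In the Jun window they mark TGANNTCA, an 8-base AP-1 form that was added after the windows had been read.
Sp5, chr2:70474673-70474922, plus strand: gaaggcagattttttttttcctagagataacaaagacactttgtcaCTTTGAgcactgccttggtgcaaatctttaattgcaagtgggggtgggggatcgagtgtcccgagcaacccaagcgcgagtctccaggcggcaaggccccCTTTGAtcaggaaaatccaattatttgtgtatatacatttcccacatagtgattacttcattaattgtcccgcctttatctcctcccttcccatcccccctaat
Jun, chr4:95052223-95052472, minus strand: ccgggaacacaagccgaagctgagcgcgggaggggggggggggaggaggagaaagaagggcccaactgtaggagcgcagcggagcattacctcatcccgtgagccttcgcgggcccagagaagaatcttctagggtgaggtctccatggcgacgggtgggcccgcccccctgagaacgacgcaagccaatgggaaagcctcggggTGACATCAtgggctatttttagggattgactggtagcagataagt
Sp5 held 2 matches to CTTTGA, starting 204 and 104 bases before the start. Mycn held 1, on the reverse strand, starting 13 bases before the start, and the Jun and Cd44 windows held none. Over 32851 promoter windows of the same length, searched on both strands, 13.8% held CTTTGA. The Jun match to TGANNTCA starts 45 bases before its start, and 11.9% of all windows held one. The E-box CACGTG, present in 6.02% of windows, and the 7-base AP-1 form TGANTCA, present in 6.75%, were in none of the 4. No overlap of one motif with another occurred in these windows. A match describes letters and is not evidence of binding.

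The levels below are the linear intensities of the authors' deposited table, in which every array's median is 1. All 15 probes were above the estimated detection floor on all 4 arrays, as were 30798 of all 41174 probes. With a floor 2 times as high, the Mycn probe from position 1007 was above it on 0 arrays. Stromal fibroblast markers were above the floor 10 of 10 on every array, at a median percentile of 97.6 to 99.4 within an array. Their summed intensity was 1030 and 1410 in Control and 2111 and 2101 in Wnt3A, and its part in the differences given below was not tested. Macrophage and myeloid markers were also all above the floor, 12 of 12, but summed to 13.4 to 17.1 in Control and 11.8 to 15.0 in Wnt3A, at a median percentile of 44.6 to 49.0. Lymphocyte markers, 8 of 8, and epithelial markers, 6 of 6, were above the floor on every array as well. For erythroid markers it was 4 or 5 of 5 and for endothelial markers 2 or 3 of 6. A reading above the floor is thus weak evidence of expression. Scanner output files of the same samples did not match the table: all 4 table columns had their highest rank correlation, 0.826 to 0.845, with the scanner file of Control replicate 2. The cause was not tested. Fosl1, Jun, Ccnd1 and the brightest Myc probe pointed the other way in one or both scalings of the scanner values, so each direction below is that of the table.

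None of the 8 genes passed the test between Wnt3A and Control. In the table Jun and Fosl1 had intensities between 4 and 5 times lower with Wnt3A, Myc had higher values at all its probes, Ccnd1 was somewhat lower, and Ccnd2, Cd44 and Sp5 overlapped between the groups. By limma with Benjamini-Hochberg adjustment, 0 of the 15 probes had an adjusted p below 0.05, as against 0.679% of all 33709 probes kept (0.424% higher and 0.255% lower in Wnt3A). An unadjusted p below 0.05 was found for 4 of 15, with 2 higher and 2 lower, where the share over all probes was 13.5%, of which 6.95% higher and 6.54% lower. The groups did not overlap at 7 of 15, with 3 higher and 4 lower in Wnt3A, and over all probes this share was 45.1%, split into 22.2% higher and 22.9% lower. The mean was higher in Wnt3A at 8 of 15, and at 50% of all probes. By the brightest probe of each gene, the median log2 difference was -0.20 over the 8 genes and -0.01 over all 22859 genes tested. By that probe 0 of 8 genes passed, against 0.643% of all genes (0.402% higher, 0.241% lower), and 2 of 8 had an unadjusted p below 0.05, both lower, against 6.31% higher and 6.34% lower. The groups did not overlap for 5 of 8, 1 higher and 4 lower, against 21.5% higher and 23.7% lower, and 2 of 8 had a higher mean, against 49% of all genes. With 2 arrays a group, an exact permutation test of one probe cannot give a two-sided p below 0.333, so the fit across all probes was used.

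**Figure D1:**
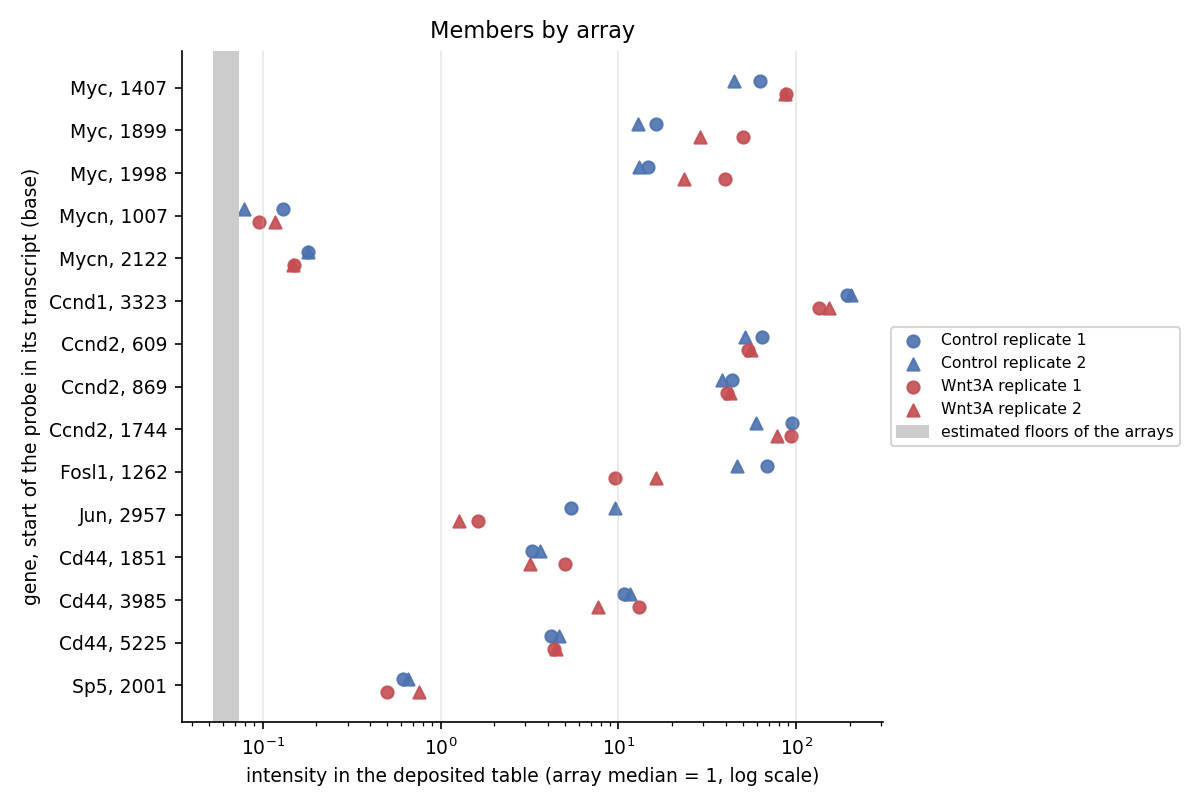
Intensity of the 15 probes in the deposited table (log axis, array median 1) on the 2 Control and the 2 Wnt3A arrays, 1 point per array. Jun and Fosl1 lie lower on both Wnt3A arrays and the 3 Myc probes lie higher, while the Ccnd2, Cd44 and Sp5 points of the groups overlap.

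The AP-1 subunits showed the largest differences among the members. Jun, the partner that can pair with itself or with Fos proteins, read 5.42 and 9.57 in the Control samples and 1.63 and 1.27 in the Wnt3A samples. Both Wnt3A arrays lay below both Control arrays, and the Control arrays were further apart from each other. The log2 difference was -2.31 ± 0.41 (SE, n = 2 a group), with a 95% interval from -3.41 to -1.21, a level 4.97-fold higher in Control. Its unadjusted p was 0.00378 and its adjusted p in limma was 0.133, which misses the threshold. Fosl1, which cannot pair with itself and binds DNA with a Jun protein, read 68.3 and 46.6 in Control and 9.59 and 16.2 in Wnt3A. The groups did not overlap, with the lowest reading on Wnt3A replicate 1. The log2 difference was -2.17 ± 0.45 (SE, n = 2 a group; 95% interval -3.37 to -0.96), 4.49-fold higher in Control, with an unadjusted p of 0.00694 and an adjusted p of 0.170. Among all kept probes these differences stood at percentiles 2.40 for Jun and 2.70 for Fosl1, counted from the most negative.

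The AP-1 list outside the members held relatives of the subunits and 2 kinases of Jun, Mapk8 at 0.43 and Mapk9 at 0.34, the latter at -0.17 as the mean of its probes. None of its 11 tested genes passed the test. Fos entered the test only through its Wnt3A arrays. Of the other 10, 8 had a higher mean in Wnt3A and 2 a lower one, with a median log2 difference of 0.39. Without the kinases these counts were 6 higher of 8. An unadjusted p below 0.05 was found for 2 of the 10, both higher, where the share over all genes above the floor on every array was 5.32%. They were Fosl2 and Maf. Maf stood at 0.88 by its brightest probe, but only 2 of its 4 probes were higher and their mean was 0.20. Atf3, a stress-induced factor that can pair with Jun, stood at 2.03 ± 1.57 (SE), with overlapping groups and an unadjusted p of 0.263 in limma. Its sign turned with Wnt3A replicate 1 left out. Fosl2, the closest relative of Fosl1, stood at 1.07 with an unadjusted p of 0.0287. Fos was above the floor on 0 Control arrays and 2 Wnt3A arrays, and at least 5.49-fold higher in Wnt3A with an adjusted p of 0.237. Junb stood at 0.12 and Jund at 0.91, while Mafk at -0.33 and Fosb at -0.29 were the lowest of the list. In the scanner values the median of the list was -0.24 or -0.38, depending on the scaling.

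Myc, the growth-promoting transcription factor, was read by 3 probes on the same transcript. The brightest, from position 1407 in the coding sequence, gave 62.2 and 44.3 in Control and 87.7 and 86.5 in Wnt3A. The probe from position 1899 gave 16.3 and 12.9 in Control and 49.9 and 28.6 in Wnt3A. The probe from position 1998, with 10 spots on each array, gave 14.6 and 13.0 in Control and 39.9 and 23.3 in Wnt3A. At each of the 3, both Wnt3A arrays lay above both Control arrays, Control replicate 2 was the lowest and Wnt3A replicate 1 the highest. The log2 differences were 0.74 ± 0.36, 1.39 ± 0.44 and 1.16 ± 0.42 (SE, n = 2 a group) in that order, corresponding to 1.67-fold, 2.63-fold and 2.23-fold. Unadjusted p-values were 0.103, 0.0301 and 0.0457 and adjusted ones 0.483, 0.308 and 0.359, so none passed. The probes share a transcript and samples and are not replicates of the comparison.

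Mycn, which replaces Myc in several embryonic tissues, was near the lower end of the scale. Its probe from position 2122 read 0.179 and 0.179 in Control and 0.149 and 0.147 in Wnt3A, with a log2 difference of -0.26 ± 0.30 and an adjusted p of 0.779. The 4 readings do not overlap between groups, but the step is smaller than its standard error. The probe from position 1007 read 0.131 and 0.0786 in Control and 0.0955 and 0.118 in Wnt3A, and these overlap.

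Genes around Myc were read for context. Of the 12 genes of the Myc-Max-Mxd network, 7 had a higher and 5 a lower mean in Wnt3A, and 0 rose or fell by the test. An unadjusted p below 0.05 was found for 3 of the 12, all higher, where the share over all genes was 6.31% higher and 6.34% lower. These were Mlxip, Mga and Mxi1. The median log2 difference of the network was 0.18, and the highest were Mlxip at 1.77 and Mga, a Max partner, at 1.01, followed by Mxi1 at 0.91. The lowest were Zbtb17 (Miz-1), through which Myc represses genes, at -0.80 and Fbxw7, a ubiquitin ligase subunit that marks Myc for degradation, at -0.54. The mean of both Fbxw7 probes was 0.62, so its direction depends on the probe. In the scanner values the median of the network turned to -0.56 or -0.32. Of 20 genes of growth and ribosome biogenesis known as Myc targets, 15 had a higher and 5 a lower mean, with a median of 0.20. None passed the test and 0 had an unadjusted p below 0.05. The groups did not overlap for 13 of the 20, with 11 higher and 2 lower, where the share over all genes was 45.2%. Nop58, a nucleolar protein, stood at 0.85 and Cad, the enzyme of the first steps of pyrimidine synthesis, at 0.81. The transferrin receptor Tfrc stood at -0.57 and the cap-binding protein Eif4e at -0.39, although the mean of both Eif4e probes was 0.26.

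**Figure D2:**
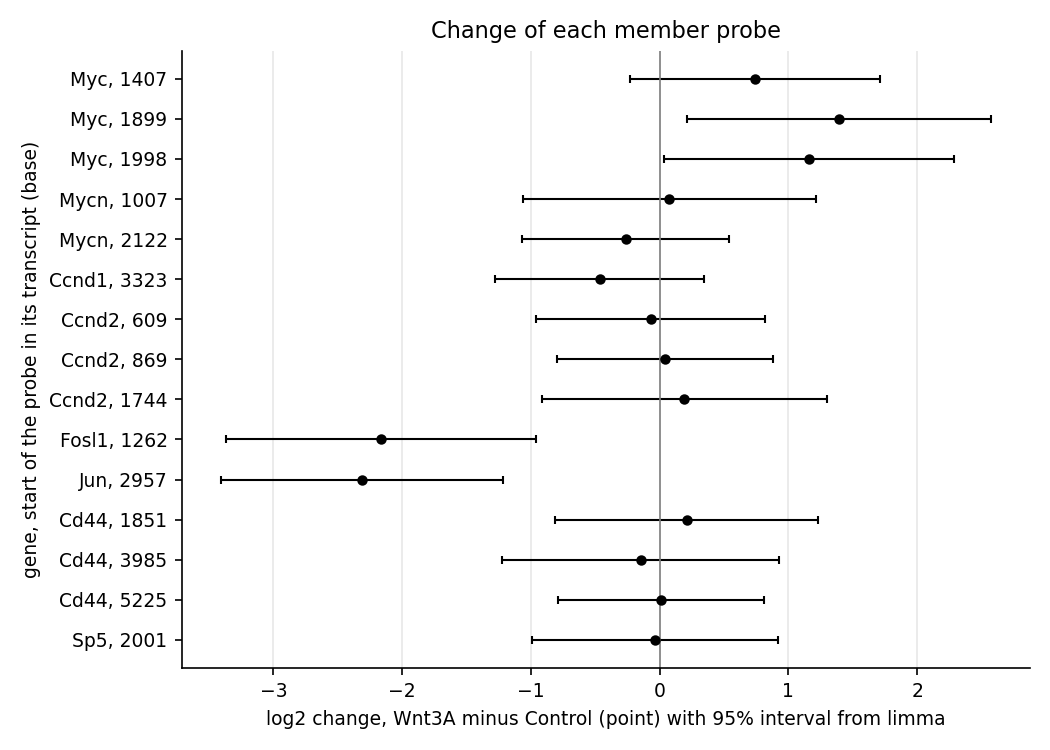
Log2 difference Wnt3A minus Control for each of the 15 probes, with its 95% interval from the limma fit; the vertical line marks no difference. Intervals of Jun, Fosl1 and the Myc probes from positions 1899 and 1998 do not cross 0, and none of the 15 passed after adjustment over all probes.

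Neither D cyclin among the members passed the test. Ccnd1, the D cyclin most often cited as a beta-catenin target, read 194 and 202 in Control and 133 and 152 in Wnt3A, each the mean of 10 spots. Both Wnt3A arrays were lower than both Control arrays. The log2 difference of -0.46 ± 0.30 (SE, n = 2 a group; 95% interval -1.28 to 0.35) had an unadjusted p of 0.193 and an adjusted p of 0.601. The interval takes in 0, and an increase beyond 0.35 on the log2 scale lies outside it.

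Ccnd2 was read by 3 probes. From position 609 it gave 64.3 and 51.5 in Control and 53.5 and 55.3 in Wnt3A, and from position 869 it gave 43.2 and 38.3 against 41.0 and 42.1. From position 1744, its brightest probe, it gave 94.4 and 59.3 in Control and 92.9 and 77.4 in Wnt3A. At all 3 the Wnt3A readings fell within the Control range. The log2 differences were -0.07 ± 0.33, 0.04 ± 0.31 and 0.19 ± 0.41, the last with a 95% interval from -0.91 to 1.30. That interval is wide and covers 0. The third D cyclin, Ccnd3, stood at -0.37 and the D-cyclin kinase Cdk4 at -0.26, neither past the test.

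Among 19 measured G1 cyclins, kinases and inhibitors outside the member genes, 9 had a higher and 10 a lower mean and 0 passed the test or had an unadjusted p below 0.05. The median was -0.03 and ranged from -0.20 to 0.09 over the settings tried on the table. Cdk6, the second D-cyclin kinase, stood at 0.76, with 2 of its 3 probes higher in Wnt3A and a mean of 0.28 over them all. The phosphatase Cdc25a stood at 0.52, although the mean of both Cdc25a probes was -0.35. The pocket proteins Rbl1 and Rbl2, which restrain E2F factors, stood at -0.84 and -0.63. Of 18 proliferation markers 9 were higher and 9 lower, with a median of -0.05 and 0 past either threshold. This median ranged from -0.19 to 0.24 over the table settings and was 0.61 or 0.34 in the scanner values, so it gives no direction. Ccna2 at 0.65 and Mcm6 at 0.57 were the highest, and Rrm2 at -0.94 and Ccnb2 at -0.92 the lowest.

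Cd44, the hyaluronan receptor, had no consistent direction over its 3 probes. The probe from position 1851 is listed for 2 RefSeq transcripts and the others for 3 each, so they need not read the same transcripts. The probe from position 1851 read 3.29 and 3.64 in Control and 4.99 and 3.16 in Wnt3A. The one from position 3985 read 10.8 and 11.5 against 13.0 and 7.70. The one from position 5225, the mean of 10 spots, read 4.19 and 4.61 in Control and 4.35 and 4.43 in Wnt3A. Groups overlapped at all 3, with both highest and lowest values on the Wnt3A arrays at positions 1851 and 3985. The log2 differences were 0.21 ± 0.38, -0.15 ± 0.40 and 0.01 ± 0.30, and the 95% interval of the last ran from -0.79 to 0.81.

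The ligands and partners of Cd44 were spread more widely than Cd44 itself. Of 14, 4 had a higher and 10 a lower mean, the median was -0.24, and 0 passed the test. Lyve1, a related hyaluronan receptor, entered the test only through its Control arrays and was at least 1.72-fold lower in Wnt3A. Of the other 13, 1 had an unadjusted p below 0.05 and was higher and 3 were lower, where the shares over all genes above the floor on every array were 5.32% and 5.47%. Their median was -0.09, and in the scanner values the median of the list was 0.02 or 0.07. Spp1 (osteopontin), a ligand of Cd44, stood at -3.35 with an adjusted p of 0.0659, and the hyaluronan synthase Has3 at -3.33 with an adjusted p of 0.196. Another synthase, Has2, stood at 0.99, and Mmp14, a membrane protease that cleaves Cd44, at 1.22. Only 1 of the 2 Has2 probes was higher in Wnt3A, and their mean was 0.47.

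Sp5 read 0.612 and 0.659 in Control and 0.498 and 0.758 in Wnt3A, with the Control values between the Wnt3A values. The log2 difference was -0.04 ± 0.35 (SE, n = 2 a group), with a 95% interval from -0.99 to 0.92. Among 5 measured Sp relatives, Sp7 (osterix), the factor of bone-forming cells, rose by 4.57 on the log2 scale with an adjusted p of 0.0480, where 0.402% of all genes were called higher. That call lies at the edge of the threshold. With single arrays left out the adjusted p was 0.145 to 0.214, with the replicate block 0.112, and the scanner values gave log2 differences of -0.015 and 0.07. The others did not pass, with Sp2 at 1.41, Sp3 at -0.19 (0.18 as the mean of its probes) and Sp1 at -0.96.

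Spots of one probe repeat within an array, which gives the measurement error below the sample level. 4 members had such a probe, namely Myc, Ccnd1, Jun and Cd44, with 10 spots each. The SD of the log2 intensity over 10 spots was 0.0315 to 0.119, with a median of 0.0651. The spots of an array thus lay much closer together than the arrays of a group for Jun and Myc.

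**Figure D3:**
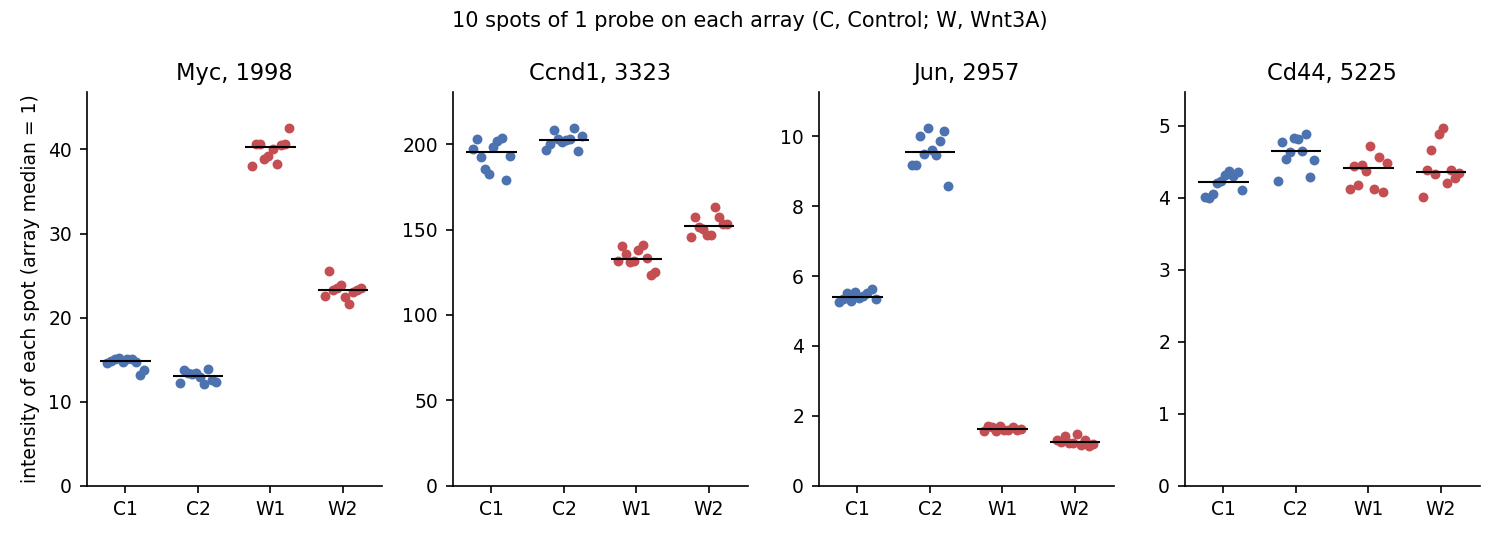
Intensities in the deposited table (linear axis) of the single spots of the 4 probes with 10 spots (Myc, Ccnd1, Jun, Cd44), by array. Spots of one array cluster tightly, with an SD of at most 0.119 on the log2 scale, while arrays of a group differ more for Jun and Myc.

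The members can be set against a list of feedback and other canonical Wnt targets, chosen, like the other lists, with earlier results of these data known. Without Myc, Ccnd1 and Sp5, the 3 members on it, 12 genes were tested. Of these, Wif1, Axin2 and Lgr5 were not above the floor on every array and entered the test only through Wnt3A. The other 9 all had a higher mean in Wnt3A by the brightest probe, with a median log2 difference of 2.25. Dkk1, among the 9, stood at 1.21 by that probe, but only 1 of its 2 probes was higher and their mean was 0.54. The groups did not overlap for 9 of 9, where the share higher over all genes above the floor on every array was 20.8%. An unadjusted p below 0.05 was found for 8, where that share was 5.32%, and 1 passed the test, where it was 0.17%. The 1 was Nkd2, an intracellular inhibitor, which rose by 6.47 on the log2 scale with an adjusted p of 0.0293. Wif1, a secreted Wnt inhibitor, was at least 268-fold higher with an adjusted p of 0.0226. Axin2, a scaffold of the beta-catenin destruction complex, was at least 2.45-fold higher, with an adjusted p of 0.0645 that misses the threshold. The calls of Nkd2 and Wif1 were lost with any array left out, at an adjusted p of 0.145 to 0.191 for both, and with the replicate block, at 0.0978. The lowest differences of the whole list of 15 were those of Ccnd1 and Sp5. In the scanner values the median of the list without members, over the 8 genes tested there, was -0.62 or -0.39.

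**Figure D4:**
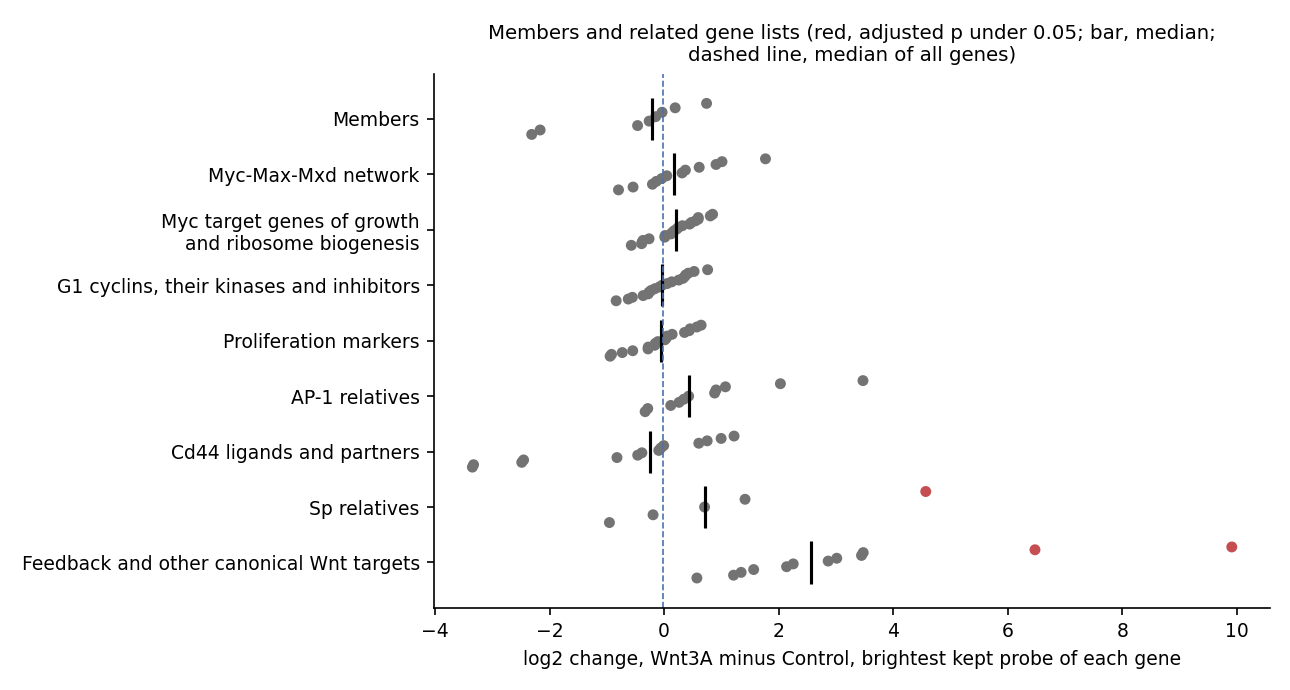
Log2 difference Wnt3A minus Control of each gene, by its brightest probe, for the member genes and the lists of related genes, 1 point per gene and a bar at the median. Fos, Lyve1, Axin2 and Wif1 have a group below the detection floor, so their points are fitted values and no bounds.

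Genes with a pattern over the 4 arrays most like that of Myc and Ccnd1 were sought among 21172 genes, each by its brightest probe. Likeness was the smallest distance between centred log2 values. For the Myc probe from position 1407 the closest were 0610012G03Rik at a distance of 0.0493, AK009963 at 0.0664 and Socs4 at 0.0745, and 82 genes lay within 0.2. The Myc probes from positions 1899 and 1998 were not used. Their Wnt3A arrays lay further apart (49.9 and 28.6, 39.9 and 23.3) than those from position 1407 (87.7 and 86.5), so these neighbours describe that probe. For Ccnd1 the closest genes were NAP030482-1 at 0.0194, Jak3 at 0.0254 and Tmem184b at 0.0281, with 316 within 0.2. With only 4 arrays such closeness is common and describes these samples.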

How the data were processed

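The authors deposited 1 table of linear intensity values, whose scaling is not stated, and 1 Agilent Feature Extraction scanner file (version 10.5.1.1, per the file headers) per array. The table was joined to probe names by spot number. Its intensities were taken as log2 minus each array's 75th percentile, and spots of a probe were averaged. Probes entered the test when both arrays of Control, of Wnt3A or of each exceeded an estimated floor. The floor was the 1st percentile of the column times 4.94, the median ratio found for signals well above background in the scanner files. It was 0.0533 to 0.0729.

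Wnt3A was compared with Control in limma 3.58.1 (R 4.3.3; lmFit, eBayes), two-sided, with Benjamini-Hochberg adjustment over 33709 probes and a threshold of 0.05, with 2 residual and 2.29 prior degrees of freedom. The brightest kept probe stood for a gene in lists. A gene with a whole group below the floor is given as "at least N-fold" from the mean of the bright group against the floor or the reading, whichever is higher. From each list, genes past the test and the 2 highest and 2 lowest are named; other genes named were chosen after their values were seen. Probes were named from the array's accession through RefSeq where possible (24367 probes by accession, 8732 by symbol, 8075 under the file's name). The members and lists were chosen with earlier results of these data known. The number of arrays limits the precision. All 4 arrays lay on 1 slide with 1 scan. Alternatives were the scanner values in 2 scalings, other scalings and filters, a trended robust variance, a replicate block and each array left out.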

Additional observations from a re-analysis of the deposited data

How the results depend on the processing

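No member was called under any of 13 settings, 11 of them on the table. In the table settings the adjusted p ranged from 0.0965 to 0.386 for Jun (log2 difference -2.67 to -1.96) and from 0.0835 to 0.392 for Fosl1 (-2.53 to -1.80). The 3 Myc probes stayed above 0 in the table, the one from position 1899 at 0.98 to 1.81. Of 194 probe values 24 changed sign, 14 of 30 with the scanner values and 10 of 164 with the table. With scanner values scaled by the 75th percentile these were Myc position 1407 at -0.30, Ccnd1 at 0.33, Ccnd2 at 0.048 (position 609) and -0.40 (869), Fosl1 at 0.16, Jun at 0.15 and Cd44 at -0.26 (1851) and 1.19 (3985). With normexp they were Myc position 1407 at -0.40, Ccnd1 at 0.10, Ccnd2 position 869 at -0.46, Fosl1 at 0.75 and Cd44 at -0.26 (1851) and 1.00 (3985). With median scaling Cd44 position 5225 stood at -0.0018, and as the mean of its probes Cd44 stood at 0.024. Sp7 stood at -0.015 and Nkd2 at -0.42 with scanner values at the 75th percentile. Of 30 genes named from the lists, 27 could be tested in the scanner values, and 18 (75th percentile) or 15 (normexp) had the opposite sign. In the table the sign also turned for Eif4e, Ccna2 and Mafk without Control replicate 1. Without Wnt3A replicate 1 it turned for Tfrc and Atf3. The call of Sp7 was also lost with median scaling (adjusted p 0.05001), without a filter (0.0762) and for probes above the floor on all arrays (0.0635), and that of Nkd2 without a filter (0.0501). The cause was not tested.

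With each array left out in turn, where the lone sample of a group is assumed to vary like the other group, sign changes gave the ranges -0.34 to 0.50 (Mycn position 1007), -0.28 to 0.14, -0.10 to 0.18 and -0.20 to 0.58 (Ccnd2 positions 609, 869 and 1744), -0.13 to 0.56, -0.54 to 0.25 and -0.0062 to 0.025 (Cd44 positions 1851, 3985 and 5225) and -0.32 to 0.25 (Sp5). Over all probes, 143 were called higher and 86 lower. These counts were 0 and 2 with scanner values at the 75th percentile, 0 and 0 with normexp, 35 and 19 without a filter, 26 and 19 for probes above the floor on all arrays, and 0 whichever array was left out. Lower calls were 131 with the doubled floor and 158 with trended robust variance.

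The replicate numbers showed no shared effect across the groups (r = 0.0124 between Control 1 minus 2 and Wnt3A 1 minus 2). This correlation cannot tell whether same-numbered samples were prepared together. With the replicate block 0 probes were called higher and 0 lower, and 4 member probes had an unadjusted p below 0.05. The slide as a block was not run because 1 slide held all arrays. Few arrays, probes near the floor and the unexplained mismatch of table and scanner files limit these values.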

Other observations

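The scanner output files, used for the detection floor and for alternative fits, gave other values for the members. As processed signal, not scaled between arrays, Jun read 63.5 and 29.4 in Control and 53.4 and 676 in Wnt3A. Fosl1 read 3.90 and 203 in Control and 215 and 72.02 in Wnt3A, and the lowest of these was not well above background. The file of Control replicate 1 was faint, with 41.8% of spots well above background and a median of 7.32, and 0 spots were saturated on any array. Macrophage and myeloid markers stood at a median percentile of 73.8 to 92.5 in these files, and stromal markers at 58.4 to 85.2. The cause of the difference from the table was not tested.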
